A study of Mus musculus with 3 samples.

Results

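The genes described here encode 10 enzymes that modify or crosslink collagen: the lysyl oxidases Lox, Loxl1, Loxl2, Loxl3 and Loxl4, the lysyl hydroxylases Plod1, Plod2 and Plod3, the prolyl 4-hydroxylase subunit P4ha1 and the transglutaminase Tgm2. They were taken by symbol from a table of 35764 gene symbols, and all 10 were listed. RNA came from the mouse cell line KPC78, labelled as pancreatic ductal adenocarcinoma cells of WT genotype, in 1 group of 3 libraries described as biological replicates, with no treatment, no other genotype and no control group. The stated purpose of the series was to find which integrin subunits the cells express. Levels are TPM, a share of transcripts corrected for length, so different genes can be compared within a library. The number of reads behind a library is not given in the table, and precision is stated from the replicates. How the cultures were separated is not stated, so the spread between libraries may be partly technical.

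Collagen chains are modified inside the endoplasmic reticulum before they are secreted. Prolyl 4-hydroxylase makes the hydroxyproline that keeps the triple helix stable, and lysyl hydroxylases make the hydroxylysine that is later used for sugar attachment and crosslinks. Outside the cell, lysyl oxidases, which are copper enzymes, oxidise lysine and hydroxylysine so that neighbouring chains join covalently, and tissue transglutaminase links glutamine to lysine in matrix proteins such as fibronectin. In pancreatic cancer these steps are studied because the tumour matrix is dense and stiff, and most of its collagen is known to come from fibroblasts.

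The cells carried the keratins of simple epithelium. Of 7 epithelial and pancreatic ductal markers 5 were at or above 1 TPM in every library, as were 55.4% of all protein-coding symbols. The 5 were led by Krt18 at 1472 TPM, Krt19 at 904 TPM and Krt8 at 879 TPM in the mean. Epcam stood at 0.16 TPM in the mean and Krt7 at 0.77 TPM. Of 10 fibroblast markers 2 reached that level, Pdgfrb and Thy1, and the summed level of the list ran from 41.8 to 52.0 TPM over the libraries. Most of that sum was Pdgfrb, and the defining markers Fap and Lum were listed at 0 in 2 libraries each, with Dcn at 0.056 TPM in the mean. Of 8 leukocyte markers 1 reached 1 TPM, with a summed level of 1.67 to 3.30 TPM, and of 5 endothelial markers none did, with a summed level of 0.86 to 1.12 TPM. In RNA from a whole culture, fewer cells expressing a gene and less RNA per cell cannot be told apart.

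Of the 10 enzymes, 8 were detected, meaning at or above 1 TPM in all 3 libraries. The same held for 32.6% of all symbols and for 55.4% of the symbols annotated as protein-coding. The 2 that were not detected, Lox and Loxl1, belong to the same branch of the lysyl oxidase family. The median of the 10 means was 27.1 TPM, beside 22.9 TPM over the 11665 detected symbols and 4.02 TPM over the 19530 protein-coding symbols. Summed over the 10 genes the level was 434, 431 and 463 TPM in replicates 1, 2 and 3.

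**Figure D1:**
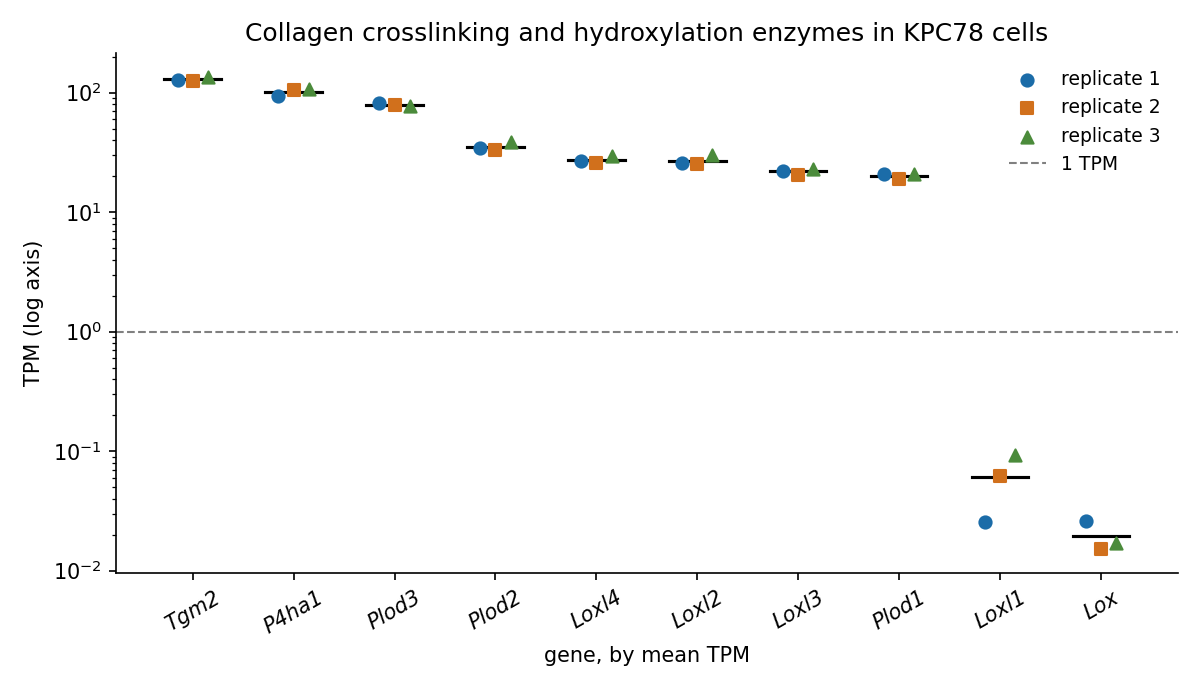
Level of each enzyme gene in TPM on a log axis, ordered by mean, with 1 point per library, a bar at the mean of 3 libraries and a dashed line at 1 TPM. Tgm2 has the highest mean at 129.8 TPM, 8 genes lie between 20.2 and 129.8 TPM in the mean, and Loxl1 and Lox lie below 0.1 TPM in every library.

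The levels fell into 3 steps. Tgm2, P4ha1 and Plod3 stood between 77.6 and 136 TPM in single libraries, and the lowest of these values was above the highest of Plod2, 38.3 TPM. Plod2, Loxl4, Loxl2, Loxl3 and Plod1 lay between 18.9 and 38.3 TPM. Loxl1 and Lox followed, at 0.093 TPM or less in any library. By mean, Tgm2 was above 90.8% of the detected symbols, P4ha1 above 87.7%, Plod3 above 83.6% and Plod2 above 63.4%, whereas Loxl4, Loxl2, Loxl3 and Plod1 were above 55.5%, 55.0%, 48.8% and 46.2%, near the middle of the detected genes.

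**Figure D2:**
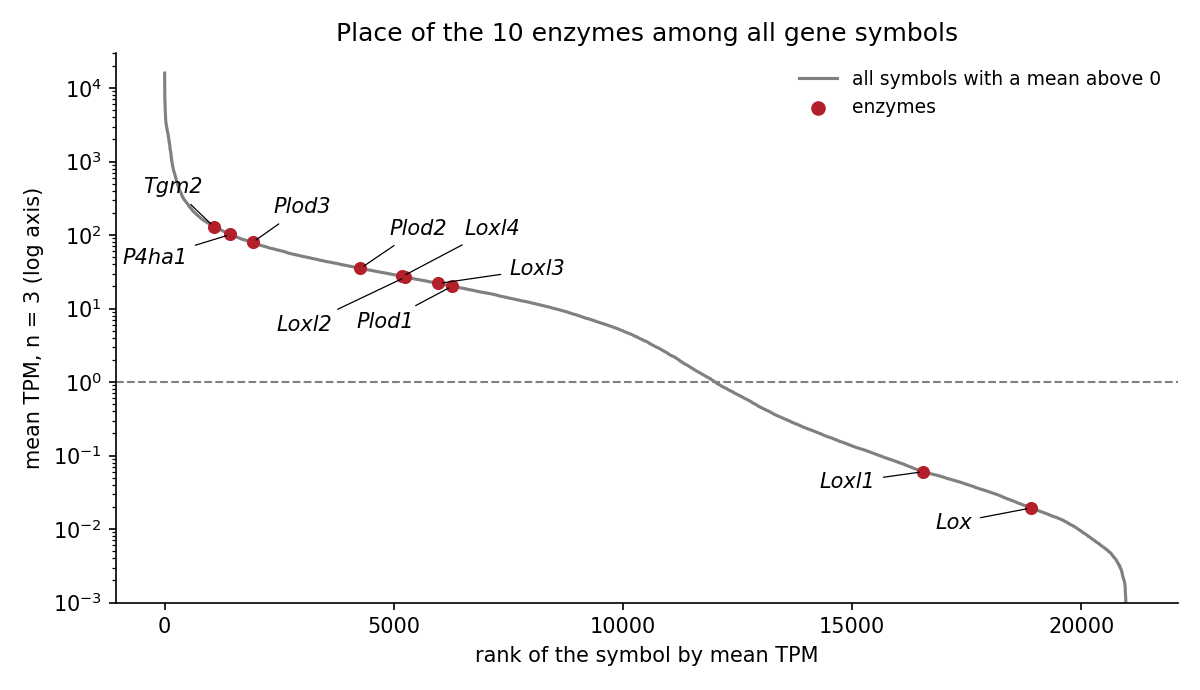
Mean TPM of 3 libraries, on a log axis, against the rank of each symbol with a mean above 0 (grey line), with the 10 enzymes as red points and a dashed line at 1 TPM. Tgm2 is at rank 1076, P4ha1 at 1435 and Plod3 at 1918, while Loxl1 and Lox are at 16555 and 18904, in the tail below 1 TPM.

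Members of the lysyl oxidase family share a stretch that codes for the copper-binding histidines of the catalytic domain. It is shown for 4 of the genes, so that their sequences can be compared. Bases identical in all 4 genes are in capitals.
Loxl1: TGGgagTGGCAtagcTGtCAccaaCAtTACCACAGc
Loxl2: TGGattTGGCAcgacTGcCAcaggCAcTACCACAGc
Loxl3: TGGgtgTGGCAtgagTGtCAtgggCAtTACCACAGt
Loxl4: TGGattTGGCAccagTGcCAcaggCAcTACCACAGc
The sequences are from GENCODE M21 transcripts on GRCm38, and each spans 2 coding exons. For Loxl2, on the plus strand, these are chr14:69682316-69682338 and chr14:69689028-69689040, and for Loxl4, on the minus strand, chr19:42599877-42599899 and chr19:42598804-42598816. For Loxl3, on the plus strand, they are chr6:83049995-83050017 and chr6:83050116-83050128, and for Loxl1, on the minus strand, chr9:58294359-58294381 and chr9:58293717-58293729. Of 36 bases 22 were the same in all 4 genes. The stretch was located with a search pattern that fixed part of these bases, so that part of the identity was required. Loxl2 and Loxl4 shared 34 bases, while Loxl1 shared 25 with Loxl2, 27 with Loxl3 and 24 with Loxl4.

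Loxl2, Loxl3 and Loxl4 made up nearly all of the family's transcripts. Loxl4, a secreted oxidase with scavenger receptor repeats, stood at 26.6, 25.9 and 29.6 TPM in replicates 1, 2 and 3. Loxl2, of the same branch and known to act on collagen IV, stood at 25.5, 25.2 and 29.8 TPM. Loxl3 stood at 22.3, 20.5 and 23.1 TPM. Replicate 3 was the highest library for each of the 3 genes and replicate 2 the lowest. The family summed to 76.2 ± 5.67 TPM (SD, n = 3), of which Loxl4 took 35.9% ± 0.19, Loxl2 35.2% ± 0.89 and Loxl3 28.8% ± 1.02 (SD, n = 3).

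Loxl4 and Loxl2 could not be placed in order. Loxl4 was the higher in 2 of 3 libraries, with a mean log2 ratio of (TPM + 1) of 0.03 and a 95% interval from -0.20 to 0.25 (adjusted p = 0.82, limma fit of all genes against Loxl2, in which 90.0% of 12013 genes differed). Both were above Loxl3 in 3 of 3 libraries. Loxl4 was 1.25 ± 0.047-fold (SD, n = 3) and Loxl2 1.22 ± 0.073-fold (SD, n = 3) above Loxl3, with adjusted p = 0.0011 and 0.0028 in the limma fit of all genes against Loxl3, in which 93.7% of 12013 genes differed. These 2 calls were lost, at adjusted p = 0.46 and 0.93, in a limma fit with separate pairs of genes of like level. That fit took its spread from those pairs and adjusted p together with them. Its 95% intervals, which are not adjusted, lay above 0, from 0.16 to 0.44 for Loxl4 and from 0.12 to 0.43 for Loxl2.

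Lox, the founding member of the family, and Loxl1, known for its role in elastic fibres, were near 0. Lox was listed at 0.026, 0.015 and 0.017 TPM in replicates 1, 2 and 3, and Loxl1 at 0.025, 0.062 and 0.093 TPM. Their ranges overlapped, and they were not tested against each other because both means were below 1 TPM. Loxl4 exceeded Lox by 4.79 and Loxl1 by 4.74 in log2 of (TPM + 1), with adjusted p = 1.34e-08 and 1.15e-11 (limma fits against Lox and against Loxl1, in which 99.8% of 12014 genes differed in each). The low levels of Lox and Loxl1 with the pseudocount of 1 TPM fixed the outcome of both tests. The pseudocount also limits both ratios, and no fold is given against genes this low. Lox and Loxl1 made up 0.026% and 0.078% of the family's summed TPM in the mean.

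Loxl2 shared the most sequence with other genes. Of the 31-base words in the annotated transcripts of Loxl2, 46.4% also occurred in another gene's transcripts, and most of these were in Gm21451, an unprocessed pseudogene on the same chromosome. Gm21451 was listed at 0 in every library. The corresponding share was 9.84% for Loxl3, all of it in Htra2, a gene that overlaps it on the opposite strand and stood at 71.6 TPM in the mean. It was 0% for Loxl4, 0.084% for Lox and 0.092% for Loxl1. Loxl2, Loxl3 and Loxl4 shared no such word with each other. The part of words shared with other genes in the levels was not tested.

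Of the lysyl hydroxylases, Plod3 was the most abundant, Plod2 came next and Plod1 was the lowest. Plod3 encodes the isoenzyme that also transfers sugars to hydroxylysine, and stood at 82.0, 78.3 and 77.6 TPM in replicates 1, 2 and 3. Plod2, which hydroxylates the telopeptides that form the stable crosslinks of stiff tissue, stood at 34.5, 32.97 and 38.3 TPM. Plod1, which acts on the helical part of the chain, stood at 20.7, 18.9 and 21.01 TPM. The ranges of the 3 genes did not overlap, and Plod3 took 58.9% ± 1.90 and Plod2 26.1% ± 1.59 of their summed TPM (SD, n = 3), while the share of Plod1 ran from 14.5% to 15.4%.

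Plod3 was 2.26 ± 0.20-fold above Plod2 (SD, n = 3), with a log2 ratio of 1.15 and a 95% interval from 0.99 to 1.31 in the limma fit of all genes against Plod2, in which 93.0% of 12013 genes differed. With the spread of separate pairs the adjusted p was 0.0072 (limma). Plod2 was in turn 1.74 ± 0.080-fold above Plod1 (SD, n = 3; adjusted p = 1.99e-05 in the limma fit against Plod1, in which 94.1% of genes differed, and 0.013 with separate pairs). Plod3 was 3.93 ± 0.22-fold above Plod1 (SD, n = 3; adjusted p = 6.50e-07, limma, and 0.00047 with separate pairs). Each order held in 3 of 3 libraries.

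Plod2 is known in a short and a long splice form that differ by a single exon of 63 bases, and the long form is the one linked to telopeptide hydroxylation in the literature on fibrosis. The exon is shown because the deposited value is per symbol and does not separate the forms, so their shares are not analysed here.
Plod2 alternative exon: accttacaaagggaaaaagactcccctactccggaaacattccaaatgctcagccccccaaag
In GENCODE M21 it is exon 14 of 20 in the long transcript, wholly coding, at chr9:92601985-92602047 on the plus strand of GRCm38, and the short transcript lacks it. Of the 31-base words of Plod2, 5.87% were shared, all with Gm38391, which overlaps it on the opposite strand. For Plod3 the share was 11.95%, most of it in Znhit1, an overlapping gene of the opposite strand listed at 82.7 TPM in the mean, and for Plod1 it was 1.34%.

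P4ha1, a catalytic alpha subunit of prolyl 4-hydroxylase, was the most abundant of the 3 alpha subunit genes. It stood at 93.7, 104.5 and 107 TPM in replicates 1, 2 and 3, beside 41.0, 42.8 and 48.7 TPM for P4ha2 and 37.2, 31.7 and 36.7 TPM for P4ha3. No value of P4ha1 overlapped with its relatives, and it took 56.2% ± 2.00 of their summed TPM (SD, n = 3). P4ha1 was 2.31 ± 0.12-fold above P4ha2 (SD, n = 3), with a log2 ratio of 1.19 and a 95% interval from 0.95 to 1.42 in the limma fit against P4ha2, in which 90.6% of genes differed, and with adjusted p = 0.0026 from separate pairs. It was 2.92 ± 0.39-fold above P4ha3 (SD, n = 3; adjusted p = 8.64e-08 in the limma fit against P4ha3, in which 93.1% of genes differed, and 0.0064 from separate pairs).

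The beta subunit P4hb, which is also the general protein disulfide isomerase, was higher than the alpha subunits together. It averaged 669.5 ± 11.5 TPM (SD, n = 3), or 3.70 ± 0.18 times the sum of the 3 alpha subunit genes (SD, n = 3). P4hb was 6.60 ± 0.47-fold above P4ha1 (SD, n = 3; log2 ratio 2.71, 95% interval from 2.47 to 2.95 in the limma fit against P4ha1, in which 95.3% of genes differed, and adjusted p = 0.00017 from separate pairs). P4ha2 was 1.26 ± 0.14-fold above P4ha3 (SD, n = 3), a call of the limma fit (adjusted p = 0.0033) that separate pairs did not keep (adjusted p = 1.00). The 95% interval of this log2 ratio from separate pairs ran from 0.11 to 0.53.

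The P4ha1 gene has a pair of alternative exons of 71 bases that are used one in place of the other. They are shown because the value per symbol does not separate them, with the 42 bases that are identical in capitals.
P4ha1 first exon: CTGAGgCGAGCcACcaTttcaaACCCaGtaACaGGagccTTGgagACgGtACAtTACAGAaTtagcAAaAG
P4ha1 second exon: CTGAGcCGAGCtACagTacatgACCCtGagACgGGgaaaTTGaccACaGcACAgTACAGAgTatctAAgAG
Each is exon 9 of 15 in its own transcript, wholly coding, on the plus strand, and they lie at chr10:59354340-59354410 and chr10:59355350-59355420 (GENCODE M21, GRCm38). Of the 31-base words of P4ha1, 0.19% were shared with another gene.

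Tgm2, the tissue transglutaminase, had the highest mean of the 10 enzymes. It stood at 128.6, 124.7 and 136 TPM in replicates 1, 2 and 3, and each value was above every value of the other 9 genes. It was the only detected gene among 9 genes looked up for the transglutaminases and coagulation factor XIII, and took 99.6% ± 0.012 of their summed TPM (SD, n = 3). The next were Tgm5 at 0.20 TPM, F13a1, the A chain of coagulation factor XIII, at 0.12 TPM and Tgm1, the keratinocyte enzyme, at 0.10 TPM in the mean, while Tgm6 and F13b were listed at 0 in every library.

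The stretch that codes for the active-site cysteine is shown for Tgm2 and for 2 of its relatives below 1 TPM, with bases identical in the 3 genes in capitals.
Tgm2: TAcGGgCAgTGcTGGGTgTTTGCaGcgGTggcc
Tgm1: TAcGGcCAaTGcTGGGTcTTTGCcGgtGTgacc
F13a1: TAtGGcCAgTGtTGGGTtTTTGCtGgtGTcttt
All 3 lie in a coding exon on the minus strand of GRCm38, at chr2:158131338-158131370 for Tgm2, chr14:55709401-55709433 for Tgm1 and chr13:36946450-36946482 for F13a1. Of 33 bases 21 were the same in all 3 genes, and Tgm2 shared 26 with Tgm1 and 22 with F13a1. Here too the search pattern that located the stretch fixed part of the identical bases. The highest value of any transglutaminase gene other than Tgm2 was 0.26 TPM, for Tgm5 in replicate 1. Of the 31-base words of Tgm2, 19.95% were shared, most of them with Gm20412, a non-coding transcript that overlaps it on the opposite strand and has no value in the table.

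Neighbours in the order of levels were also compared. Tgm2 was 1.28 ± 0.091-fold above P4ha1, P4ha1 1.29 ± 0.13-fold above Plod3 and Plod2 1.29 ± 0.012-fold above Loxl4 (SD, n = 3 each). All 3 passed in the limma fits against the lower gene (adjusted p = 0.0046, 0.0022 and 4.92e-05, where 95.3%, 96.6% and 93.0% of genes differed), and none passed with separate pairs (adjusted p = 0.51, 0.92 and 0.19). The 95% intervals of these ratios, which are not adjusted for the number of pairs, lay above 0 with either spread. Loxl3 and Plod1 differed least after Loxl4 and Loxl2, with Loxl3 1.09 ± 0.012-fold higher (SD, n = 3; adjusted p = 0.041 in the limma fit against Plod1). That call was lost without any one replicate (adjusted p from 0.064 to 0.16, limma), and with separate pairs the interval ran from -0.02 to 0.24.

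**Figure D3:**
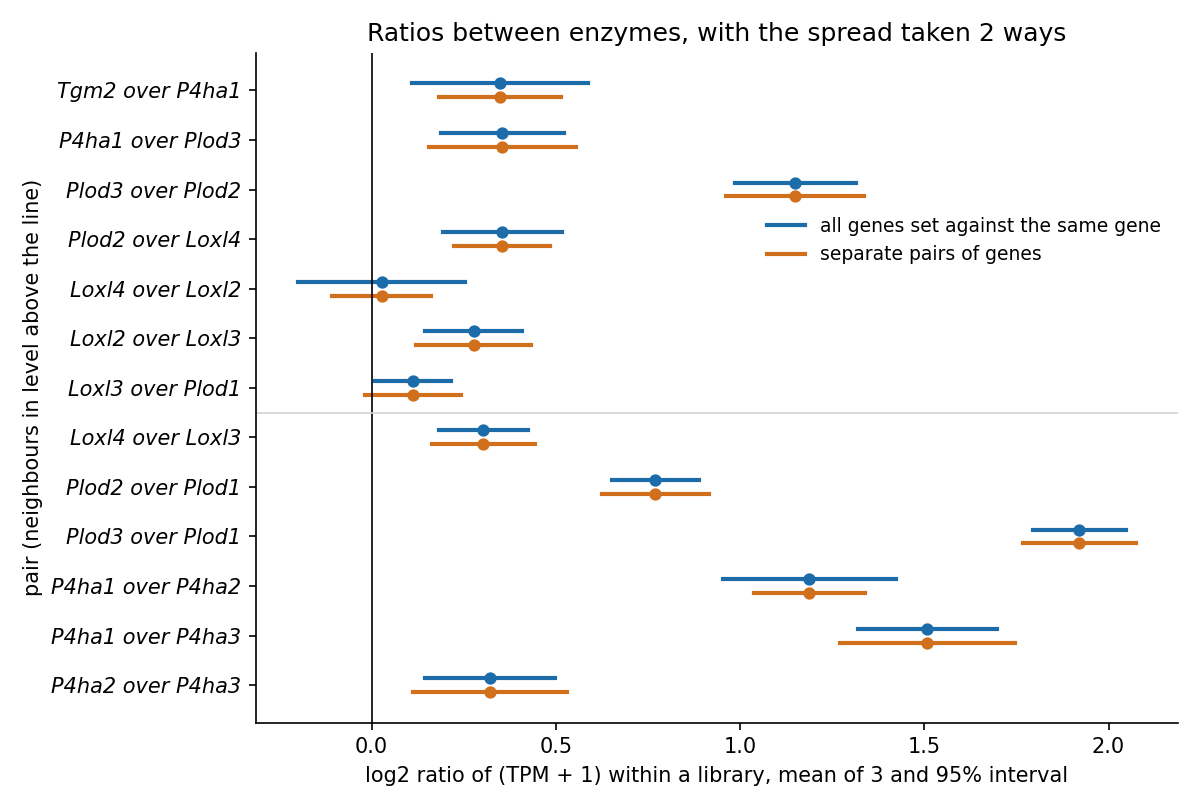
Mean log2 ratio of (TPM + 1) within a library over 3 libraries, with 95% intervals, for neighbours in level (above the grey line) and for pairs within an enzyme family. Blue intervals take the spread from all genes set against the lower gene and orange ones from separate pairs of genes, and Loxl4 over Loxl2 is the pair whose interval includes 0 with both.

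In all, 48 pairs were tested. Of these, 16 set a detected enzyme against Lox or Loxl1, where 99.8% of all genes differed and the low levels with the pseudocount fix the outcome, and all 16 passed. Of the other 32 pairs, 31 passed in the limma fits against the lower gene. With the spread of separate pairs 21 of the 32 passed after adjustment together with 6002 pairs of like level, and 30 unadjusted intervals excluded 0. Among pairs of detected genes the smallest fold that passed with separate pairs was 1.60, and the 10 calls lost lay between 1.09 and 1.35-fold. The 6002 pairs join genes next to each other in mean level and so differ little by construction, and 0 of them passed. Adjustment together with them is strict, so these folds do not mark the smallest difference that the libraries could show. The tests measure the spread between libraries and leave out any bias in the TPM of one gene against another.

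The 61 other genes of collagen maturation that were looked up included 34 detected ones, a share near the 55.4% of all protein-coding symbols that were detected. The other prolyl hydroxylases and their partners were all detected, 8 of 8 beside P4ha1. They were led by Ppib, a prolyl isomerase of the 3-hydroxylation complex, at 725 ± 19.2 TPM, P4hb, and Crtap of the same complex at 153.7 ± 9.65 TPM (SD, n = 3). Partners of the lysyl hydroxylases were detected for 4 of 5. Among them Colgalt1, which adds galactose to hydroxylysine, stood at 109.1 ± 2.82 TPM, above all 3 Plod genes in every library, while P3h4 at 7.16 ± 1.49 TPM and P3h3 at 4.13 ± 0.21 TPM, known partners of the Plod1 enzyme, were below them in every library (SD, n = 3). Chaperone and export genes were detected for 6 of 6, with Sparc, a collagen-binding protein, at 379 ± 9.43 TPM, the collagen chaperone Serpinh1 at 94.4 ± 0.33 TPM and Mia3, needed for export of bulky procollagen, at 50.4 ± 4.20 TPM (SD, n = 3).

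Genes that mature procollagen and the lysyl oxidase precursor were detected for 3 of 8, beside 55.4% of all protein-coding symbols. Pcolce, an enhancer of procollagen C-proteinase, stood at 835.5 ± 38.1 TPM, above its relative Pcolce2 at 26.8 ± 1.97 TPM and above the proteinase gene Bmp1 itself at 14.5 ± 1.02 TPM (SD, n = 3). Tll2, a relative of Bmp1, and Adamts3, a procollagen N-proteinase, were listed at 0 in every library. Among genes for copper loading and for scaffolds of the lysyl oxidases 6 of 7 were detected, with the fibronectin gene Fn1 at 193 ± 28.2 TPM, the fibulin gene Efemp2 at 189.6 ± 3.70 TPM and the copper chaperone Atox1 at 101.1 ± 4.03 TPM (SD, n = 3). Of the transporters of ascorbate, the cofactor of both kinds of hydroxylase, Slc23a2 stood at 13.3 ± 2.07 TPM (SD, n = 3) and Slc23a1 at 0.060 TPM in the mean.

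Of 12 fibrillar collagen and elastin genes, which encode substrates of these enzymes, 4 were detected, led by Col3a1 with 34.1 ± 1.53 TPM, Col5a1 with 29.8 ± 3.06 TPM and Col27a1 with 5.25 ± 0.59 TPM (SD, n = 3). Both type I collagen chains were below 1 TPM, Col1a1 at 0.53 TPM and Col1a2 at 0.056 TPM in the mean, and so was Col5a2 at 0.016 TPM. Elastin, the main substrate known for Loxl1, stood at 0.053 TPM in the mean. Of 7 genes of collagen IV and its crosslinking 4 were detected, a share near the 55.4% of protein-coding symbols, led by Col4a1 with 81.7 ± 7.64 TPM, Pxdn, the peroxidase that forms sulfilimine bonds in collagen IV, with 66.3 ± 6.44 TPM and Col4a2 with 32.8 ± 2.49 TPM (SD, n = 3). The 12 fibrillar and elastin genes summed to between 72.7 and 78.0 TPM over the libraries. The 7 genes of collagen IV and its crosslinking summed to between 179 and 212 TPM, and the 5 lysyl oxidase genes to between 71.7 and 82.6 TPM. A balance between enzymes and substrates was not tested.

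**Figure D4:**
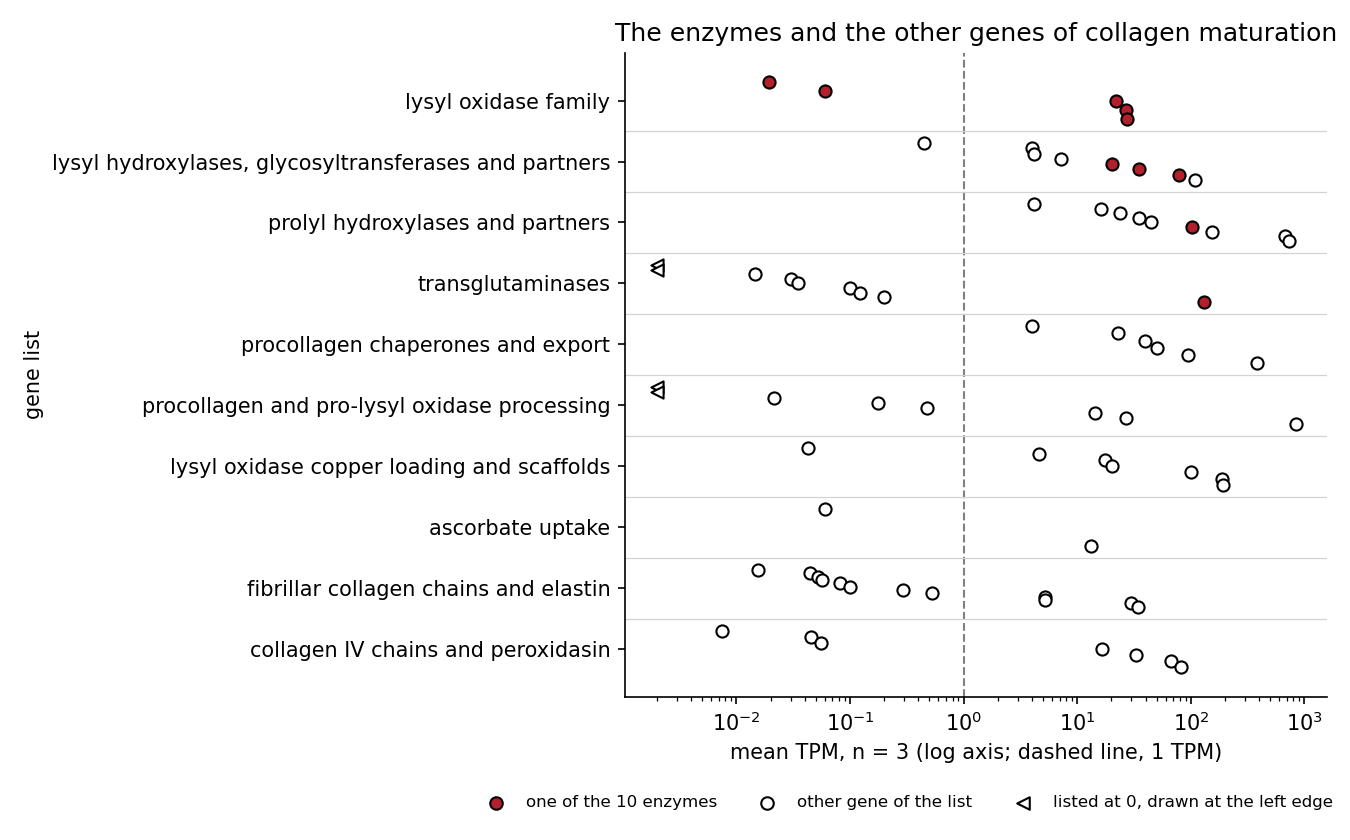
Mean TPM of 3 libraries on a log axis for each gene of 10 lists of collagen maturation, with the 10 enzymes in red, other genes in white and a dashed line at 1 TPM. All 9 genes of the list of prolyl hydroxylases and partners and all 6 of chaperones and export are right of the line. Tgm2 is the only transglutaminase there.

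The libraries differed little for these enzymes, but in a common direction. The coefficient of variation of the 8 detected enzymes had a median of 6.50%, beside 5.29% over the 8502 symbols with a mean of at least 10 TPM, and ran from 2.96% for Plod3 to 9.52% for Loxl2. Replicate 2 was the lowest library for 6 of 8, all but Plod3 and P4ha1, as it was for 62.0% of the 8502 symbols. Replicate 3 was the highest for 7 of 8, all but Plod3, as it was for 42.4% of those symbols.

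In numbers, the log2 ratio of replicate 2 to the mean of the other libraries had a median of -0.13 over the 8 enzymes, against -0.10 over the 2329 symbols of at least 10 TPM whose longest coding transcript was of like length, 3243 to 5316 bases. For replicate 3 it was 0.11 over the enzymes, against 0.05 over symbols of like length. For replicate 1 the medians had opposite signs, -0.03 over the enzymes against 0.04 over symbols of like length, and 1 of 8 enzymes, Plod3, was highest there, beside 41.6% of the 8502 symbols. Loxl2 deviated most in replicate 3, by 0.23, and Plod3 was the exception there with -0.05. The part of library preparation in these shifts was not tested.

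**Figure D5:**
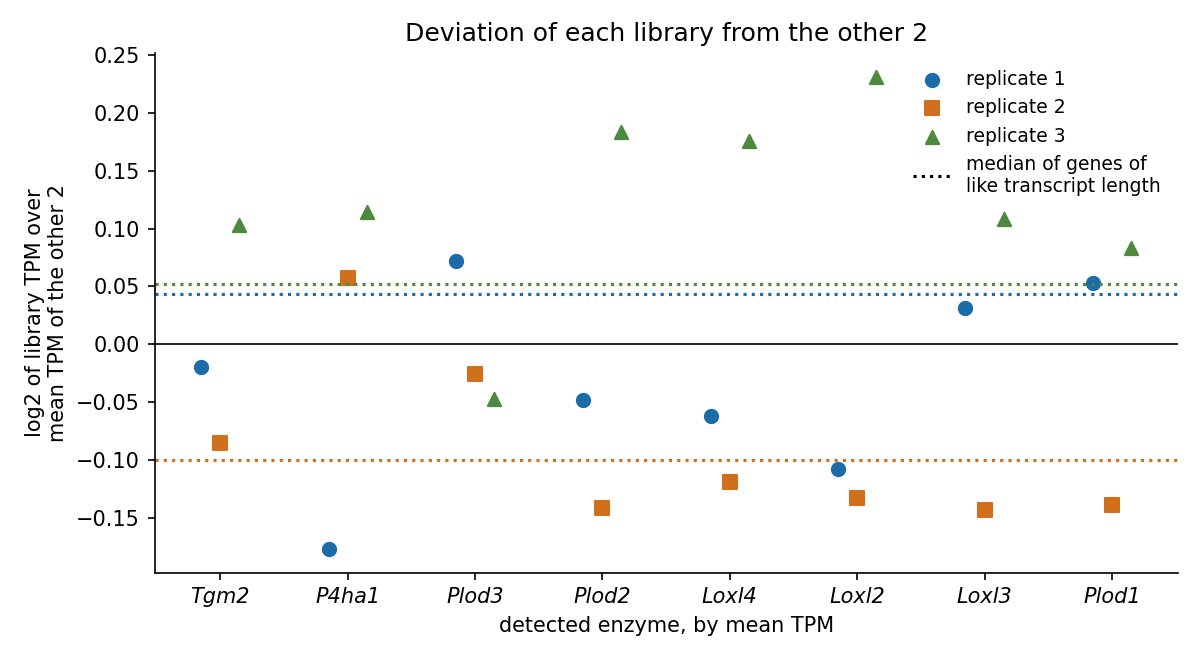
Log2 of the TPM in each library over the mean TPM of the other libraries, for the 8 detected enzymes in the order of their mean, with dotted lines at the median of symbols of like transcript length. Replicate 3 lies above 0 for 7 enzymes and replicate 2 below 0 for 7, with P4ha1 above 0 in replicate 2.

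The genes are annotated as protein-coding in GENCODE M21. On GRCm38, Loxl2 spans chr14:69609068-69695834, Loxl3 chr6:83034173-83052562, Plod2 chr9:92542223-92608428, Plod3 chr5:136987019-136996648 and P4ha1 chr10:59323296-59373304, all on the plus strand. On the minus strand Loxl1 spans chr9:58287738-58313186, Loxl4 chr19:42593982-42612813, Plod1 chr4:147909753-147936767 and Tgm2 chr2:158116402-158146436. Each value stands for a gene symbol as a whole, exons and UTRs included.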

How the data were processed

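Polyadenylated RNA of KPC78 cells was sequenced in 3 libraries from column-extracted total RNA, per the labels' protocols. The deposited values are TPM for each gene symbol, quantified by the authors with kallisto 0.44.0 according to the submitters' processing notes, which also list bcl2fastq 2.19 and the build GRCm38.p6. How transcripts were summed, and from which annotation release, was not given in the sources used here. Another sheet has 3 columns that match no sample label and was not used. TPM keeps no read depth, so no counting intervals are given.

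Each column carries the library name of a sample. Detection means at least 1 TPM in every library, and means and SDs are over n = 3. For each enzyme in turn, log2(TPM + 1) of every gene with a mean of at least 1 TPM was set against that enzyme within each library and tested with limma (version 3.58.1, R 4.3.3) in a model with an intercept alone (two-sided, Benjamini-Hochberg adjustment over all genes of the fit, threshold 0.05, 95% intervals). All ratios of a fit share the error of the gene set against, and limma's prior degrees of freedom came out infinite against Loxl2, P4ha1 and P4ha2. A fit with the spread of 6002 separate pairs of genes next to each other in mean level was therefore added after the data were seen, with p adjusted over those pairs as well. The 95% intervals of both kinds of fit are for single pairs and are not adjusted. Other alternatives were pseudocounts of 0.1 and 5 TPM, detection minimums of 0.5 and 5 TPM or by the mean, no filter, a prior spread that follows the level, geometric means, rescaling without 424 mitochondrial and ribosomal protein symbols, and leaving out each replicate.

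The enzymes, lists and tests were chosen with earlier results of these data known. Named are the 10 enzymes, P4ha2, P4ha3, P4hb, the 3 other genes of highest mean in each list and list genes listed at 0. Elastin, Epcam and other genes outside that rule were chosen after their values were seen. Sequences and positions came from GENCODE M21 (GRCm38). Shared words of 31 bases, counted on both strands over all annotated transcripts, are kallisto's usual unit, and the length the authors used is not given. Python 3.11.15 and pandas 2.3.3 were used.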

Additional observations from a re-analysis of the deposited data

How the results depend on the processing

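The count of 8 detected enzymes was the same at 0.5 and 5 TPM, by the mean and without any one replicate. Of the other pathway genes 34 were detected, with 29 at 5 TPM. Of the 48 pairs, 47 passed with pseudocounts of 0.1 and 5 TPM, with a spread that follows the level and after rescaling, and 46 passed with no filter on low values and without any one replicate (46 to 46). The call lost in each case was Loxl3 over Plod1 (adjusted p = 0.17 with no filter, limma). Separate pairs kept 37. All these counts include the 16 pairs against Lox or Loxl1, and without those they are 31 in the fits against 1 gene and 21 with separate pairs. No direction reversed. Rescaling multiplied every level by 1.36 to 1.38. No paired analysis was possible because 1 group leaves no other group to pair samples with, and the ratios were already taken within each library. No sample group had the 4 libraries that a search for outlying samples needs.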
